A study of Mus musculus with 4 samples.

Results

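The 10 genes described here encode the cyclins, kinases and inhibitors that act in the G1 phase of the cell cycle: the D cyclins Ccnd1, Ccnd2 and Ccnd3, the kinases Cdk4 and Cdk6, the Cip/Kip inhibitors Cdkn1a, Cdkn1b and Cdkn1c, and the INK4 inhibitors Cdkn2c and Cdkn2d. They were chosen by symbol from the 21830 genes measured, without use of their values but with earlier results of these data known. All 10 were listed in every library. The RNA came from retinas of pHes1-EGFP mice, which the labels give as the FVB/N strain and which received no treatment. These mice carry a destabilized EGFP behind a fragment of the Hes1 promoter. Retinal cells of postnatal day 1 (P1) and postnatal day 4 (P4) were sorted into EGFP-positive cells (pHes1_EPCs) and EGFP-negative cells (pHes1_ENCs), and the transcripts of each fraction were sequenced once. The comparison asks which genes are expressed in the cells with Hes1 promoter activity, among them the Müller glia, the radial glial cells of the retina. There were 4 libraries and 1 for each fraction and age, so no difference could be tested, and the differences below are descriptions of these libraries. The labels do not say how many animals were pooled. Hes1 is also active in retinal progenitors, so the EGFP-positive gate can hold progenitors as well as glia.

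D-type cyclins are made in response to mitogens and bind CDK4 or CDK6, and the active kinase phosphorylates the retinoblastoma protein and frees E2F transcription factors, which open the way into S phase. INK4 proteins block CDK4 and CDK6 themselves, whereas Cip/Kip proteins bind cyclin and kinase together and chiefly restrain CDK2. In the retina, cyclin D1 is known as the main D cyclin of progenitors, and p27, the product of Cdkn1b, is known to accumulate as progenitors leave the cycle and to be kept by Müller glia.

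The reporter that defined the fractions is driven by the promoter of Hes1, a repressor whose class C site was searched as the letters CACGNG. This pattern takes in CACGTG as well as CACGCG, and its forms were counted together. The upstream bases of the 3 genes below are shown because Cdk4 matches the pattern repeatedly. A kinase and an inhibitor with a single match stand beside it. RefSeq promoter windows of the GRCm38.p6 build, 250 bases before and 50 after a start site, were found for 7 of the 10 genes in 10 windows, namely Ccnd3, Cdk4, Cdk6, Cdkn1a, Cdkn1b, Cdkn2c and Cdkn2d. The 250 bases before the start are printed 5′ to 3′ on the strand of the gene, and capitals mark matches to CACGNG on either strand. They lie at chr10:127063285-127063534 (Cdk4, plus strand), chr5:3343643-3343892 (Cdk6, plus strand) and chr6:134920151-134920400 (Cdkn1b, plus strand).
Cdk4: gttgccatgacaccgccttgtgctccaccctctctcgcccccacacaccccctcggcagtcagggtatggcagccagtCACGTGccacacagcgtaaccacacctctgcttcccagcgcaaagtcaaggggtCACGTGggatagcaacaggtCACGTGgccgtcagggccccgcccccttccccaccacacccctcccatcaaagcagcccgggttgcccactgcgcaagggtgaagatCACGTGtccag
Cdk6: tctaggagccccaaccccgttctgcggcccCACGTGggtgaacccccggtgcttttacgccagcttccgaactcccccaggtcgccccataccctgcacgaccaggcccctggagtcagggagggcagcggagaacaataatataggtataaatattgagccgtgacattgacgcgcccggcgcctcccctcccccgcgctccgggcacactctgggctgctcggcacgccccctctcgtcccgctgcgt
Cdkn1b: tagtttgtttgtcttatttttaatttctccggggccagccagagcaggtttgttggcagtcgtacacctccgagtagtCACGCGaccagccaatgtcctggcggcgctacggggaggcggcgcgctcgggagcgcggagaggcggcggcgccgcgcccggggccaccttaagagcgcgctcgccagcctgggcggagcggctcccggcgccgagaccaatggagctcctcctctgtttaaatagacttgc
Cdk4 had 4 matches, which start 172, 118, 98 and 11 bases before the gene's start and all read CACGTG. Of the 32851 RefSeq promoter windows, 0.396% held 4 or more. This share was not computed among windows rich in G and C, and the Cdk4 window has a GC content of 67%. Cdk6 had a single CACGTG, 220 bases before its start, and Cdkn1b a single CACGCG, 172 bases before its start. At least 1 match was found in 6 of the 10 windows, in 6 of the 7 genes. The same letters occurred in 27.5% of all windows and in 48.5% of those with a GC content of at least 60%, so a match is common in promoters rich in G and C. The GC box GGGCGG was found in 6 of the 7 genes, against 35.7% of all windows and 80.6% of the GC-rich ones. No window held any of the E2F letters TTTCGCGC, TTTGGCGC, TTTCCCGC or TTTGCCGC. These were found in 2.26% of all windows and 4.29% of the GC-rich ones, so a window without them is the usual case. Both strands were searched for each motif, and CACGAG counts for the class C site and for the N box CACNAG alike. A match describes letters in the reference and is no measurement of binding. Whether Hes1 or other factors bind CACGTG at Cdk4 and Cdk6 was not tested.

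The levels are FPKM, which counts fragments and divides them by transcript length and library size, so that genes of different length may be set side by side. Differences are given as log2(FPKM + 1) in the first library minus log2(FPKM + 1) in the second, which understates the change of low genes, and a difference beyond 1 is called past 2-fold. Beside a ratio of FPKM stands its range, taken from the ends of the 95% intervals that Cufflinks lists, which cover counting error only and no variation between animals or sorts. The sort was reflected in Hes1, which was 16.6 and 105 FPKM in P1 pHes1_ENCs and pHes1_EPCs and 3.59 and 93.5 FPKM at P4, and in its relative Hes5, at 64.8, 282, 16.3 and 324 FPKM in the same order. Relative depth, inferred from the interval widths of 5053 genes, lay between 0.928 and 1 of the P1 pHes1_ENC library. The median difference over the 7785 genes with an FPKM of at least 10 was 0.19 at P4 and 0.24 between the ages in pHes1_EPCs over 7501 such genes. It became -0.09 and -0.08 after rescaling to the same total. In sorted populations of mixed type, more cells of a type and more RNA per cell cannot be told apart.

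At P1, 5 of the 10 genes were past 2-fold higher in pHes1_EPCs (Ccnd1, Ccnd3, Cdk6, Cdkn1a and Cdkn2c), against 6.1% of all genes, and 1 was past 2-fold lower (Cdkn1c), against 6.79% of all genes. Among the 12557 genes that reached an FPKM of 1 in either library, these shares were 10.6% and 11.8%. At P4, 4 of the 10 were past 2-fold higher (Ccnd1, Cdk4, Cdkn1c and Cdkn2c), against 9.85% of all genes and 17.4% of the 12390 with an FPKM of at least 1. None of the 10 was past 2-fold lower at P4, against 5.42% of all genes and 9.56% of those with an FPKM of at least 1. Ccnd1 and Cdkn2c were the 2 genes past it at both ages. The median difference of the 10 genes was 0.89 at P1 and 0.87 at P4, beside 0.03 and 0.17 for the genes with an FPKM of at least 1. The intervals of the fractions lay apart for 9 of the 10 genes at P1 and for 7 at P4. Among all 21830 genes, they lay apart with 4826 higher and 4751 lower at P1, and 6178 higher and 4056 lower at P4. Intervals that lay apart were thus common. Differences above 0 were found for 8 of the 10 genes at P1, all but Ccnd2 and Cdkn1c, and for all 10 at P4. The share of all genes above 0 was not counted, and the P4 median of 0.17 was itself above 0. At P4, Ccnd2 (0.22), Cdk6 (0.28) and Cdkn2d (0.38) were the nearest to that median. After rescaling to the same total they were 0.17, 0.14 and 0.12, and Cdk6 fell to -0.04 with quantile normalization. The genes above 0 covered cyclins, kinases and inhibitors alike, and the plot of levels shows how far the genes differed in abundance.

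**Figure D1:**
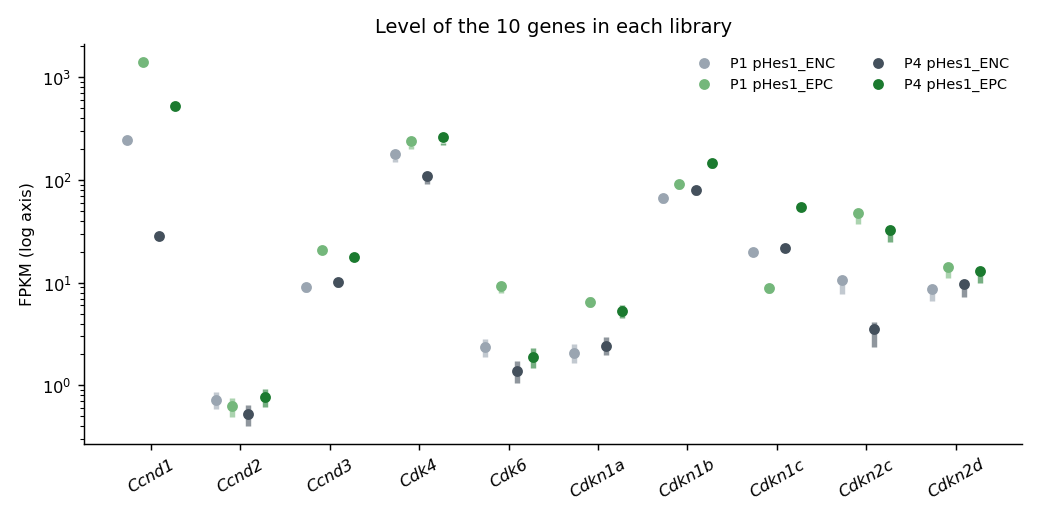
FPKM of the 10 genes on a log axis in the 4 libraries, with 1 point for each library and bars for the Cufflinks 95% interval. Ccnd1 spans the widest range, from 28.5 FPKM in P4 pHes1_ENCs to 1406 FPKM in P1 pHes1_EPCs, and Ccnd2 stays below 1 FPKM throughout.

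Ccnd1 was the dominant D cyclin and among the most abundant transcripts of the retina in pHes1_EPCs. It was 243 FPKM in P1 pHes1_ENCs, 1406 FPKM in P1 pHes1_EPCs, 28.5 FPKM in P4 pHes1_ENCs and 532 FPKM in P4 pHes1_EPCs. Both EGFP-positive libraries were above both EGFP-negative ones, and only P4 pHes1_ENCs had a moderate level. By FPKM it ranked 3 of 21830 genes in P1 pHes1_EPCs and 59 in P4 pHes1_EPCs, but 2589 in P4 pHes1_ENCs. The ratio of pHes1_EPCs to pHes1_ENCs was 5.78 at P1 (5.61 to 5.89), a log2 difference of 2.53 that ranked 27 of the 7648 genes with an FPKM of at least 10. At P4 the ratio was 18.6 (17.2 to 19.5), a log2 difference of 4.17 at rank 34 of 7785. The wider gap at P4 went with a lower level in both fractions. From P1 to P4 the FPKM was 2.64 times lower in pHes1_EPCs (log2 change -1.40) and 8.53 times lower in pHes1_ENCs (log2 change -3.05). The gene lies at chr7:152115836-152125830 on the minus strand of NCBI37/mm9 with 5 exons. Its annotated exons share 818 bases with Oraov1 on the opposite strand, and the library kit did not mark strand. Oraov1 itself lay between 14.9 and 18.6 FPKM in the 4 libraries, and its part in the Ccnd1 values was not tested.

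Ccnd3, the D cyclin found in many differentiated tissues, was the second D cyclin of the retina at a far lower level. It was 9.03 FPKM in P1 pHes1_ENCs, 21.0 FPKM in P1 pHes1_EPCs, 10.1 FPKM in P4 pHes1_ENCs and 17.6 FPKM in P4 pHes1_EPCs, so that both EGFP-positive libraries were above both EGFP-negative ones. The ratio between the fractions was 2.32 at P1 (1.95 to 2.79, log2 difference 1.13) and 1.75 at P4 (1.45 to 2.12, log2 difference 0.75). Unlike Ccnd1, Ccnd3 differed little with age. Its P4 to P1 ratio was 0.839 in pHes1_EPCs (0.717 to 0.983) and 1.11 in pHes1_ENCs (0.902 to 1.38), where the intervals overlapped. Of the 36-base windows of its transcript, 29.0% also occur exactly elsewhere in the genome, most of them at a single place on chromosome 4, so reads from these windows have more than 1 position. The gene lies at chr17:47642000-47736637 on the plus strand of NCBI37/mm9, and its annotated exons share 353 bases with Bysl on the opposite strand, which was between 4.96 and 8.20 FPKM.

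Ccnd2, the D cyclin that is prominent in the neural progenitors of other brain regions, was hardly detected. It was 0.725, 0.623, 0.522 and 0.767 FPKM in P1 pHes1_ENCs, P1 pHes1_EPCs, P4 pHes1_ENCs and P4 pHes1_EPCs. The intervals of every pair of libraries compared overlapped, and the ratio between the fractions was 0.859 at P1 (0.574 to 1.28) and 1.47 at P4 (0.970 to 2.28). A difference of Ccnd2, which lies at chr6:127075727-127101066 on the minus strand of NCBI37/mm9, was therefore not detectable at this depth.

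Because FPKM is divided by length, the D cyclins can be added. Their sum was 253, 1427, 39.1 and 550.2 FPKM in P1 pHes1_ENCs, P1 pHes1_EPCs, P4 pHes1_ENCs and P4 pHes1_EPCs. Ccnd1 supplied 96.1%, 98.5%, 73.0% and 96.7% of it. The P4 EGFP-negative library stood apart, since Ccnd3 made up 25.7% there and between 1.47% and 3.57% in the other 3 libraries. That share went with the low Ccnd1, as the Ccnd3 level itself was 10.1 FPKM in that library and 9.03 FPKM in P1 pHes1_ENCs.

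**Figure D2:**
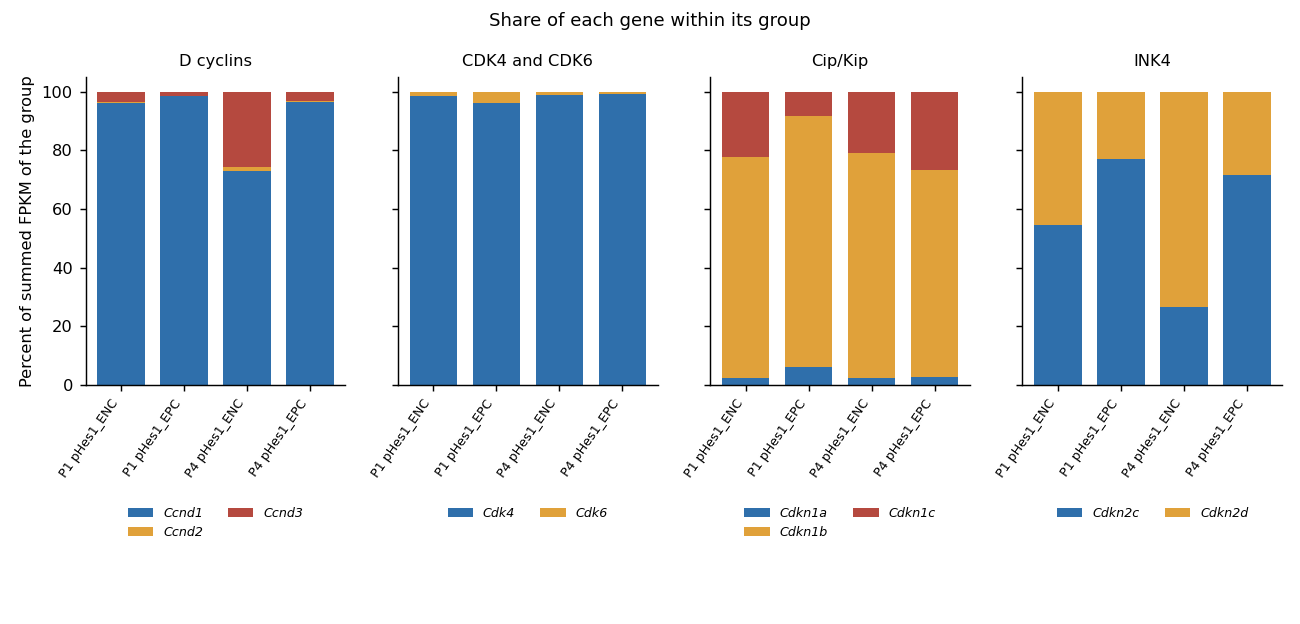
Share of each gene in the summed FPKM of its group, in percent, for the D cyclins, the G1 kinases, the Cip/Kip genes and the INK4 genes in the 4 libraries. Ccnd1, Cdk4 and Cdkn1b make up most of their groups in every library, and Cdkn2c, set against the higher of both Cdkn2d lines, has its smallest share, 26.7%, in P4 pHes1_ENCs.

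Cdk4 was the G1 kinase of these cells, present in every library at more than 100 FPKM. It was 179 FPKM in P1 pHes1_ENCs, 242 FPKM in P1 pHes1_EPCs, 110.3 FPKM in P4 pHes1_ENCs and 262 FPKM in P4 pHes1_EPCs. The EGFP-positive libraries were the highest at both ages and P4 pHes1_ENCs the lowest. Its ratio between the fractions was 1.35 at P1 (1.26 to 1.45, log2 difference 0.43) and 2.38 at P4 (2.17 to 2.54, log2 difference 1.24). In pHes1_ENCs it was 1.62 times lower at P4 than at P1 (log2 change -0.69). In pHes1_EPCs the log2 change was 0.12 with the deposited FPKM but -0.22 with FPKM of the same total, -0.06 with median-of-ratios scaling and -0.43 with quantile normalization, so no direction can be given. The P4 difference of 1.24 dropped below 1 with FPKM of the same total (0.96) and with quantile normalization (0.74). The gene lies at chr10:126500659-126504338 on the plus strand of NCBI37/mm9 with 8 exons, and its annotated exons share 604 bases with Tspan31 on the opposite strand. Tspan31 was 48.4 FPKM in P1 pHes1_ENCs and highest, at 97.0 FPKM, in P4 pHes1_EPCs, and its part in the Cdk4 values was not tested.

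Cdk6, the other kinase that D cyclins activate, was a minor transcript with its highest level in P1 pHes1_EPCs. It was 2.36 FPKM in P1 pHes1_ENCs, 9.38 FPKM in P1 pHes1_EPCs, 1.39 FPKM in P4 pHes1_ENCs and 1.90 FPKM in P4 pHes1_EPCs. The P1 EGFP-positive library stood alone, and the other 3 lay close together. The ratio between the fractions was 3.98 at P1 (2.83 to 5.33, log2 difference 1.63) and 1.37 at P4 (0.862 to 2.20, log2 difference 0.28), where the intervals overlapped and quantile normalization turned the difference to -0.04. From P1 to P4, Cdk6 in pHes1_EPCs was 4.93 times lower (log2 change -1.84), which ranked 7451 of 7501 genes from the highest change. The change in pHes1_ENCs was -0.49 on the log2 scale. The gene spans chr5:3344312-3522225 on the plus strand of NCBI37/mm9, and 6.41% of its 36-base windows recur elsewhere. Cdk6 made up 3.74% of the summed FPKM of both kinases in P1 pHes1_EPCs and between 0.720% and 1.30% in the other libraries. The FPKM of Cdk4 was 75.9, 25.8, 79.6 and 138 times that of Cdk6 in P1 pHes1_ENCs, P1 pHes1_EPCs, P4 pHes1_ENCs and P4 pHes1_EPCs.

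**Figure D3:**
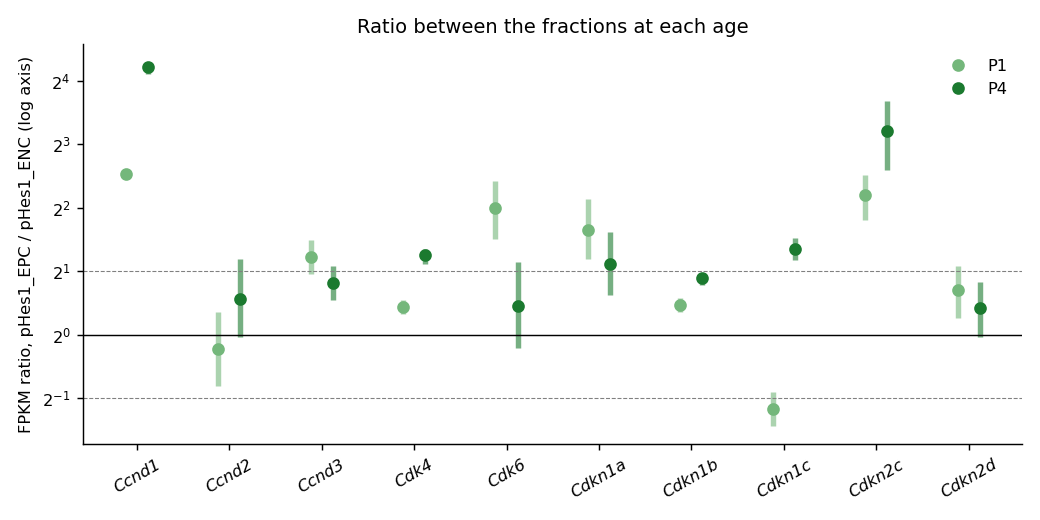
Ratio of FPKM in pHes1_EPCs to FPKM in pHes1_ENCs at P1 and P4 for the 10 genes on a log axis, with bars for the range that the Cufflinks intervals allow and dashed lines at a ratio of 2 in either direction. Cdkn1c lies at 0.444 at P1 and at 2.53 at P4, and Ccnd1 reaches 18.6 at P4.

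Of the inhibitors, Cdkn1b (p27) was by far the most abundant. It was 66.6 FPKM in P1 pHes1_ENCs, 91.8 FPKM in P1 pHes1_EPCs, 79.8 FPKM in P4 pHes1_ENCs and 147 FPKM in P4 pHes1_EPCs. The P4 EGFP-positive library was the highest. Its ratio between the fractions was 1.38 at P1 (1.27 to 1.49, log2 difference 0.46) and 1.85 at P4 (1.72 to 1.96, log2 difference 0.88), so that it stayed within 2-fold at both ages. From P1 to P4 it was 1.60 times higher in pHes1_EPCs (1.49 to 1.70) and 1.20 times higher in pHes1_ENCs (1.10 to 1.30). The size of these differences depended on the scaling. With FPKM of the same total, median-of-ratios scaling and quantile normalization, the log2 change of 0.68 in pHes1_EPCs became 0.34, 0.50 and 0.25. That of 0.26 in pHes1_ENCs became 0.13, 0.28 and 0.09, and the P4 difference of 0.88 became 0.59, 0.67 and 0.49. Cdkn1b made up between 70.9% and 85.7% of the summed Cip/Kip FPKM. The gene lies at chr6:134870419-134875543 on the plus strand of NCBI37/mm9 with 2 exons.

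Cdkn1c (p57), a Cip/Kip inhibitor that marks progenitors leaving the cycle and a subset of amacrine cells, was past 2-fold lower in pHes1_EPCs at P1 and past 2-fold higher at P4. It was 19.8 FPKM in P1 pHes1_ENCs, 8.80 FPKM in P1 pHes1_EPCs, 21.8 FPKM in P4 pHes1_ENCs and 55.1 FPKM in P4 pHes1_EPCs. The EGFP-negative libraries were alike, and the EGFP-positive library was the lowest of the 4 at P1 and the highest at P4. At P1 the ratio was 0.444 (0.369 to 0.532, log2 difference -1.09), and at P4 it was 2.53 (2.25 to 2.88, log2 difference 1.30). In pHes1_EPCs, Cdkn1c was 6.26 times higher at P4 than at P1 (5.38 to 7.38, log2 change 2.52), which ranked 69 of 7501 genes. The P4 to P1 ratio was 1.10 in pHes1_ENCs (0.946 to 1.27), with overlapping intervals. None of the repeated windows or overlapping exons seen for other genes was found for Cdkn1c, which lies at chr7:150644244-150646955 on the minus strand of NCBI37/mm9 with 4 exons.

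Markers of the pigment epithelium, which adjoins the retina, were highest in P4 pHes1_EPCs, where Cdkn1c was highest too. At P1 these markers were higher in pHes1_EPCs, where Cdkn1c was lower. Summed over the 3 markers Rpe65, Tyr and Ttr, their level was 0.0123 and 0.251 FPKM in P1 pHes1_ENCs and pHes1_EPCs and 0.382 and 24.9 FPKM at P4. P1 pHes1_ENCs listed Rpe65 and Ttr at 0, whereas the P4 EGFP-positive library held 23.1 FPKM of Ttr, 1.34 FPKM of Tyr and 0.422 FPKM of Rpe65. Their part in the Cdkn1c value was not tested. Of the 5 listed amacrine markers, 3 were found (Gad1, Slc6a9 and Slc32a1). They summed to 55.6 and 2.74 FPKM at P1 and to 66.6 and 11.0 FPKM at P4, lower in pHes1_EPCs at both ages. The part of amacrine cells in the Cdkn1c value was not tested either.

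Cdkn1a (p21), the Cip/Kip inhibitor that p53 induces, was low and leaned towards pHes1_EPCs. It was 2.09 FPKM in P1 pHes1_ENCs, 6.54 FPKM in P1 pHes1_EPCs, 2.44 FPKM in P4 pHes1_ENCs and 5.28 FPKM in P4 pHes1_EPCs. Both EGFP-positive libraries were above both EGFP-negative ones. The ratio was 3.13 at P1 (2.29 to 4.41, log2 difference 1.29) and 2.16 at P4 (1.55 to 3.07, log2 difference 0.87). At this low level the P4 call rests on the pseudocount, since the difference was 1.08 with a pseudocount of 0.1 and 1.11 with none. The intervals of P1 and P4 overlapped in both fractions. The gene lies at chr17:29227931-29237667 on the plus strand of NCBI37/mm9 with 3 exons.

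The INK4 gene Cdkn2c (p18) followed Ccnd1 in its preference for pHes1_EPCs. It was 10.5 FPKM in P1 pHes1_ENCs, 48.1 FPKM in P1 pHes1_EPCs, 3.52 FPKM in P4 pHes1_ENCs and 32.6 FPKM in P4 pHes1_EPCs, and both EGFP-positive libraries were well above the EGFP-negative ones. The ratio was 4.58 at P1 (3.50 to 5.68, log2 difference 2.09) and 9.25 at P4 (6.03 to 12.8, log2 difference 2.89), the largest difference of any inhibitor among the 10 genes at both ages. From P1 to P4 it was 1.48 times lower in pHes1_EPCs (log2 change -0.55) and 2.98 times lower in pHes1_ENCs (log2 change -1.35). The gene lies at chr4:109333481-109337977 on the minus strand of NCBI37/mm9 with 3 exons, and none of its 36-base windows recurred elsewhere.

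Cdkn2d (p19), the other INK4 gene expressed in the retina, varied less. Its line at chr9:21092908-21095653 held 8.71 FPKM in P1 pHes1_ENCs, 14.2 FPKM in P1 pHes1_EPCs, 9.68 FPKM in P4 pHes1_ENCs and 12.9 FPKM in P4 pHes1_EPCs. The EGFP-positive libraries were the higher ones, with a ratio of 1.63 at P1 (1.20 to 2.12) and of 1.33 at P4 (0.977 to 1.77, overlapping intervals). The level itself is uncertain, because 94.6% of the 36-base windows of the transcript recur on the same chromosome, where the files list a second Cdkn2d line with 8.16, 13.1, 9.12 and 12.1 FPKM. The sum of both lines was 16.9, 27.3, 18.8 and 25.0 FPKM. The relation between the libraries was therefore nearly the same in the sum, and only the level depends on how the reads were split. Both remaining INK4 genes, Cdkn2a and Cdkn2b, were near the limit of detection, with Cdkn2a at 0.150, 0.944, 0.162 and 1.17 FPKM and Cdkn2b at 0.153, 0.352, 0.198 and 0.679 FPKM.

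**Figure D4:**
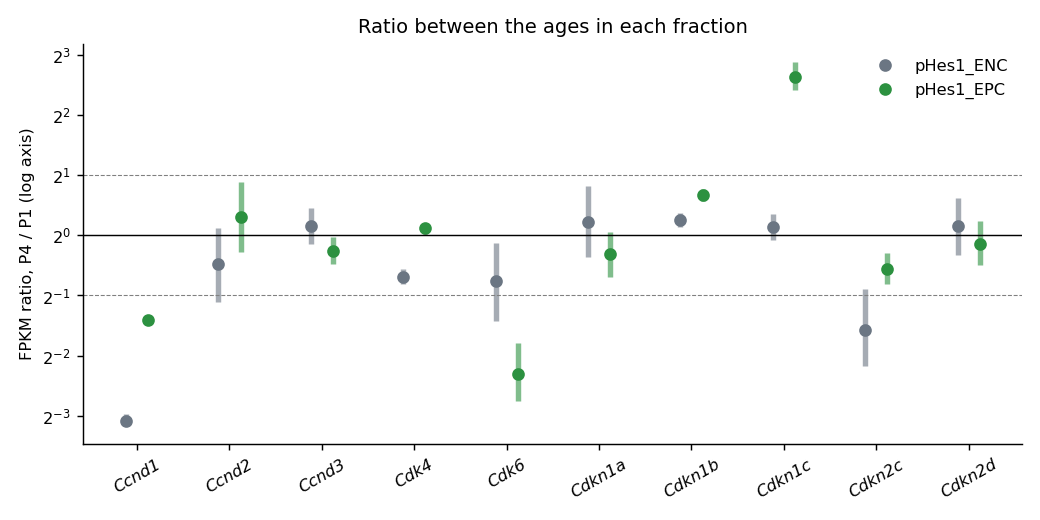
Ratio of FPKM at P4 to FPKM at P1 in pHes1_ENCs and pHes1_EPCs for the 10 genes on a log axis, with bars for the range that the Cufflinks intervals allow and dashed lines at a ratio of 2 in either direction. Cdkn1c in pHes1_EPCs lies at 6.26, Cdk6 in pHes1_EPCs at 0.203 and Ccnd1 in pHes1_ENCs at 0.117.

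Between the ages, the counts of the 10 genes past 2-fold were as follows. In pHes1_EPCs 1 was higher at P4 (Cdkn1c), against 4.17% of all genes and 7.43% of the expressed ones, and 2 were lower (Ccnd1 and Cdk6), against 2.57% and 4.57%. Expressed here means an FPKM of at least 1 in either library. In pHes1_ENCs none was higher, against 2.77% of all genes and 4.88% of the expressed ones, and 2 were lower (Ccnd1 and Cdkn2c), against 5.94% and 10.5%. The median change of the 10 genes was -0.18 in pHes1_EPCs and -0.03 in pHes1_ENCs, beside 0.19 and 0.00388 for the genes with an FPKM of at least 1. The intervals of P1 and P4 lay apart for 7 of the 10 genes in pHes1_EPCs and for 5 in pHes1_ENCs. Among all 21830 genes, they lay apart with 5897 higher and 3222 lower in pHes1_EPCs, and 3697 higher and 4611 lower in pHes1_ENCs. Both fractions thus had less Ccnd1 at P4, whereas Cdk6 and Cdkn1c were past 2-fold in pHes1_EPCs and Cdkn2c in pHes1_ENCs. These age comparisons share their libraries with the comparisons between the fractions.

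Summed RNA levels of the D cyclins and the inhibitors can be set side by side, which measures neither protein nor kinase activity. The 5 inhibitors together were 108, 169, 117 and 253 FPKM in P1 pHes1_ENCs, P1 pHes1_EPCs, P4 pHes1_ENCs and P4 pHes1_EPCs. Cdkn2d entered this sum with the higher of both its lines. The D cyclins summed to 2.35, 8.42, 0.334 and 2.17 times that amount. P4 pHes1_EPCs were thus close to P1 pHes1_ENCs in this ratio, although their inhibitor and D cyclin levels were both higher. The ratio of Ccnd1 to Cdkn1b was 3.66, 15.3, 0.358 and 3.61 in the same order, so that Cdkn1b exceeded Ccnd1 in P4 pHes1_ENCs alone. The 20 S and G2/M phase genes summed to 506, 2092, 132 and 891 FPKM, and Ccnd1 was 0.481, 0.672, 0.216 and 0.597 times that sum.

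The genes of at least 10 FPKM had near copies of their pattern over the 4 libraries among the 8402 genes that reached an FPKM of 10 in any library. Likeness was measured as the Euclidean distance between log2(FPKM + 1) values centred on their mean, so that 0 is an identical pattern. Nearest to Ccnd1 were Rrm2 (a subunit of ribonucleotide reductase) at 0.339, Uhrf1 (a factor that maintains DNA methylation) at 0.392 and Cyp26a1 (a retinoic acid hydroxylase) at 0.462. Cdkn1c had a single close neighbour, Gadd45g (a stress-induced growth arrest gene), at 0.248, with 68.3, 27.3, 78.9 and 202 FPKM, followed by Dct (a melanin synthesis enzyme) at 0.631 and 1110008P14Rik at 0.650. Cdkn2c lay near Acot1 and Ng23, both at 0.189, and Yap1 (the Hippo pathway coactivator) at 0.216. For Ccnd3, Cdk4, Cdkn1b and Cdkn2d, the nearest were 2610528E23Rik, Gm15645, Chchd1 and Terf1, at 0.0410, 0.0618, 0.0348 and 0.0417. Among the 7 of these genes that reached 10 FPKM, Ccnd3 and Cdkn2d were the closest pair at 0.434, and Ccnd1 and Cdkn2c were 1.59 apart. With 4 libraries such distances only describe the shape of a profile.

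Downstream of the D cyclins, all 20 S and G2/M phase genes were past 2-fold higher in pHes1_EPCs at both ages, with a median difference of 1.99 at P1 and 3.20 at P4. The largest P4 differences among them were 3.74 for Birc5 (survivin), 3.70 for Rrm2 and 3.63 for Aurkb (Aurora kinase B). Between the ages the median change of these 20 genes was -1.26 in pHes1_EPCs, with 15 past 2-fold lower, and -2.26 in pHes1_ENCs, with 18 past 2-fold lower. Thus Ccnd1, at -1.40 and -3.05, had changes of the same direction. Of the 12 genes of the cyclin E and CDK2 arm, which acts after the D cyclins, 6 were past 2-fold higher at either age, with medians of 1.15 and 1.29. At P4 these included the kinase subunit Cks2 (2.83), Fbxw7 (2.53), which targets cyclin E for degradation, and Ccne1 (2.41), which encodes cyclin E1. Of the 13 pocket protein and E2F genes, 8 were past 2-fold higher at P1 and 5 at P4, with medians of 1.15 and 0.84, and none was past 2-fold lower. E2f1 (3.47), an activator of S phase genes, and E2f8 (2.71) and E2f7 (2.01), which are repressors, were the furthest at P4, while Rb1, the retinoblastoma gene, was 20.1, 17.0, 20.9 and 20.3 FPKM.

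**Figure D5:**
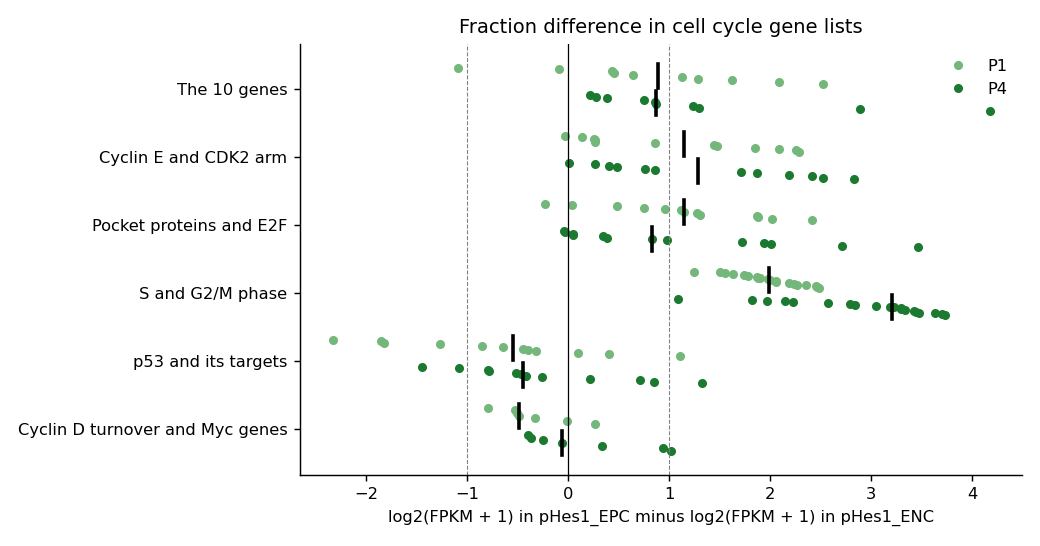
Difference of log2(FPKM + 1) between pHes1_EPCs and pHes1_ENCs for the 10 genes and for 5 lists of related genes at P1 and P4, with 1 point for each gene, a black bar at the median and dashed lines at 1 and -1. The 20 S and G2/M phase genes all lie above 1 at both ages, with medians of 1.99 and 3.20, while the medians of the p53 list are -0.54 and -0.44.

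The p53 list was mixed in direction. Above 0 were 3 of its 12 genes at P1 and 4 at P4, and Trp53 itself was higher in pHes1_EPCs within 2-fold, at ratios of 1.33 at P1 and 1.66 at P4 with intervals that lay apart. Of the 12 genes 1 was past 2-fold higher at each age (Phlda3), and 4 were past 2-fold lower at P1 (Btg2, Gadd45a, Trp53inp1 and Bbc3) and 2 at P4 (Bbc3 and Sesn2), with medians of -0.54 and -0.44. Of the 7 genes of cyclin D turnover and the Myc family, none was past 2-fold at P1 and 1 was higher at P4 (Myc, at 0.501 and 2.05 FPKM), with medians of -0.48 and -0.06. Rb1, Trp53 and the genes in parentheses here were picked after their values had been seen.

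Markers of the retinal cell types differed between the fractions as well. Müller glia markers summed to 500.2, 1572, 312 and 2908 FPKM in P1 pHes1_ENCs, P1 pHes1_EPCs, P4 pHes1_ENCs and P4 pHes1_EPCs, and pHes1_EPCs were past 2-fold higher in 8 of 10 at P1 and in 9 at P4. Progenitor markers summed to 778, 1299, 431 and 1210.1 FPKM, with 5 and 7 of 8 past 2-fold higher. Rod markers summed to 702, 43.4, 4084 and 774 FPKM, of which 7 of 8 were past 2-fold lower in P1 pHes1_EPCs and 8 in P4 pHes1_EPCs, and all 8 were past 2-fold higher at P4 than at P1 in either fraction. Between the fractions, glial and progenitor markers were higher in pHes1_EPCs, as Ccnd1 and Ccnd3 were, except 2 of 8 progenitor markers at P1. Rod markers were higher in pHes1_ENCs. With age, rod markers were higher in both fractions while Ccnd1 was lower. Müller glia markers summed higher at P4 than at P1 in pHes1_EPCs, where Ccnd1 was lower, with 3 of 10 past 2-fold higher, and lower in pHes1_ENCs, with 5 of 10 past 2-fold lower. Erythroid genes were 184 and 499.7 FPKM in pHes1_ENCs at P1 and P4 and 0.414 and 6.47 FPKM in pHes1_EPCs. The endothelial list summed to 63.4, 213, 14.8 and 194 FPKM, which was mostly Kdr, while the defining marker Cdh5 was at or near 0 in all 4 libraries. Microglial markers stayed between 1.86 and 8.15 FPKM, cone markers were 86.4, 15.1, 100.8 and 37.0 FPKM, and the lists for bipolar, ganglion, horizontal and astrocyte cells stayed at or below 22.4 FPKM in sum. The part of these cells in the values of the 10 genes was not tested.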

How the data were processed

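RNA from EGFP-positive and EGFP-negative retinal cells of P1 and P4 pHes1-EGFP mice was measured in 4 libraries, 1 a group, grouped by their titles. Single-end 36-base reads were placed on NCBI37/mm9 by the authors with TopHat 2.0.8b, keeping a read with at most 50 positions. The deposited FPKM, each with a 95% interval and a status, come from Cufflinks 2.1.1 with default options. The submitters' processing notes also name bcl2fastq 1.8.4. Read counts were not used here, so the depth is known only relative to the P1 pHes1_ENC library, and intervals cover counting error only.

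Values were processed with Python 3.11.15, numpy 2.4.6, pandas 2.3.3 and matplotlib 3.10.9. Of the 23021 gene lines, 794 lines of small RNAs were left out, and each of the 234 symbols with several lines was represented by its highest line, leaving 21830 genes. Between 9 and 11 lines a library had the status FAIL, and 283 had LOWDATA. The fractions were compared within each age and the ages within each fraction, by the difference of log2(FPKM + 1) with a threshold of 1. Beside the 10 genes, the text names Hes1, Hes5, the 3 genes nearest in pattern to a gene of at least 10 FPKM, and up to 3 genes of each pathway list with the largest P4 difference past 2-fold and an FPKM of at least 10 in any of the 4 libraries. Genes that overlap one of the 10, the other INK4 genes and genes marked in the text are named outside this rule. Markers are given by list, and single ones where they make up or define a list. Values did not enter the rule for the 10 genes, but the genes and lists were chosen with earlier results of these data known. Positions, exons and repeated windows were read from the NCBI37/mm9 genome and annotation, and motifs from RefSeq promoters of GRCm38.p6. Only the 2-fold rule was tested on simulated data, with changes placed in genes of at least 10 FPKM. The other procedures were not tested in that way. Alternatives were other pseudocounts, scalings and filters, calls by intervals that lie apart, and the lines of a symbol summed.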

Additional observations from a re-analysis of the deposited data

Results flagged for a closer look

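Cdkn1c and Cdk4 stood out because a difference had opposite signs in 2 groups and the Cufflinks intervals of the libraries compared lay apart in both. Opposite signs of other genes among the 10 did not meet the second condition. For Cdkn1c, the log2 difference between the fractions, pHes1_EPCs minus pHes1_ENCs, came to -1.09 in the P1 libraries and to 1.30 in the P4 libraries. For Cdk4, the log2 change from P1 to P4 was 0.12 in pHes1_EPCs and -0.69 in pHes1_ENCs. With 1 library in each group, neither difference between groups was tested. The opposite signs of Cdkn1c were present under every pseudocount and scaling tried, whereas the sign of Cdk4 in pHes1_EPCs depended on the scaling, with values of -0.22, -0.06 and -0.43 under the 3 other scalings.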

How the results depend on the processing

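No paired analysis was possible because each group holds 1 library and the labels give no replicate numbers. For the same reason, leaving out a library leaves a group empty and was not run.

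Counts of the 10 genes past 2-fold stayed within 1.5 times under every pseudocount, scaling and filter tried. Calling by intervals that lie apart gave 8 higher at P1, 7 higher at P4, 3 higher and 4 lower with age in pHes1_EPCs, and 1 higher and 4 lower with age in pHes1_ENCs. Single genes crossed the threshold only at P4, namely Cdk4 (0.96 with FPKM of the same total, 0.74 with quantile normalization) and Cdkn1a (1.08 with a pseudocount of 0.1, 1.11 with none). Signs turned for Ccnd2 (0.11 at P1 and 0.09 with age in pHes1_ENCs with quantile normalization, -0.02 with age in pHes1_EPCs with the same total), for Cdk6 (-0.04 at P4 with quantile normalization) and for Cdk4 as given above. The shares of the D cyclins moved by little, quantile normalization giving Ccnd1 97.0% of the P1 pHes1_ENC sum and 95.9% of the P4 pHes1_EPC sum.

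Counts over all genes depended more on the setting. At P1, 1331 higher and 1483 lower genes became 2057 and 2470 with a pseudocount of 0.1, 2529 and 2981 with none, and 4826 and 4751 by intervals. At P4, 2150 higher genes became 3625 with no pseudocount and 6178 by intervals, and 1184 lower genes became 1963 with a pseudocount of 0.1, 2491 with none, 2170 with the same total and 4056 by intervals. With age in pHes1_EPCs, 911 higher genes became 1714, 2348, 593 with quantile normalization and 5897 by intervals, and 560 lower genes became 1162, 1602, 1418 with the same total and 3222 by intervals, the first 2 values being those of a pseudocount of 0.1 and of none. With age in pHes1_ENCs, 604 higher genes became 1010, 1405 and 3697 by intervals, and 1297 lower genes became 2502, 3150, 2188 with the same total and 4611 by intervals, in the same order. Scaling also moved the balance of directions. Of the genes past 2-fold at an FPKM of at least 10, 62.4% were higher in pHes1_EPCs at P4, against 44.7% with the same total, 50.5% with median-of-ratios scaling and 51.3% with quantile normalization. With age in pHes1_EPCs these shares were 61.6%, 29.4%, 42.9% and 40.8%.

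Precision was limited by depth for the low genes, with interval half-widths of the 10 genes between 0.685% and 27.2% of the interval's midpoint. In 14 of the 40 values, in 5 genes, the FPKM lies above the upper end of its own interval, so the ranges of these ratios need not centre on the ratio. The cause was not tested.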
